A study of Mus musculus with 8 samples.

Results

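The constitutive proteasome subunits are the genes for the core particle (20S) and the regulatory particle (19S) of the standard proteasome, without the subunits that interferon induces. The set was given as a list of 31 gene symbols, and all 31 were found among the 55414 genes of the count table. It comprises 14 subunits of the core particle and 17 of the regulatory particle, and every one passed the filter on low counts that left 15150 genes for testing. The lowest count of any of them in any library was 2300 reads.

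The proteasome is the barrel-shaped protease that degrades proteins marked with ubiquitin in the cytosol and nucleus. Its outer alpha rings gate entry, its inner beta rings carry the cutting sites, and the regulatory particle docks on the ends, recognises ubiquitin chains, removes them and threads the unfolded substrate inside through a ring of ATPases. Subunit transcripts are usually made in proportion to one another, and the transcription factor NFE2L1 raises many of them together when proteasome activity falls.

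The cells were mouse cardiac fibroblasts, the matrix-producing cells of the heart, infected with an adenovirus that expresses Has2 (hyaluronan synthase, which makes the matrix sugar hyaluronan) or with a GFP adenovirus as the control, with 4 libraries in each group. All 8 libraries shared the rest of the culture: cells at passage 2 were serum starved for 24 h, exposed to virus for 5 h, then given bFGF and TGF-beta at 20 ng/mL and collected after 48 h. The labels give the strain as C57BL/6J and the genotype as wild type for both groups, while the treatment text names mice with a floxed Has2 gene, and a Cre virus named there was not analysed here. Libraries with replicate numbers 1 and 2 came from females and those with numbers 3 and 4 from males, and the GFP and Has2 libraries of a number share a preparation identifier, so each number is called a pair below. Female and male preparations carry different series of identifiers, and these 2 factors cannot be told apart. No label says that the numbers are separate animals, so p-values measure the spread between these samples. In bulk samples fewer cells of a type and less RNA per cell cannot be told apart.

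Library totals ran from 46981231 to 55795187 counts. Has2 itself stood at 7.36 to 25.2 scaled read counts (CPM, as edgeR gives them with its TMM factors for the library sizes) with GFP virus and at 3209 to 9533 CPM with Has2 virus, in the order that the labels give. It was the 1 gene among 15150 called in the virus comparison. The 11 fibroblast markers summed to 25636 to 39150 CPM with GFP virus and 25835 to 39817 CPM with Has2 virus, and none was at 0. Cardiomyocyte markers summed to at most 9.23 CPM, with Myl7 at 0 throughout, and lymphocyte markers to at most 0.123 CPM. Hepatocyte markers reached 677 CPM in GFP replicate 1 and at most 2.22 CPM with Has2 virus. Exons of 7 subunit genes overlap a gene on the opposite strand (Psma4, Psma5, Psmb7, Psmc3, Psmd1, Psmd3 and Psmd13). The library kit keeps strand, but the strand setting of the counting is not given in the sources used here. Those 7 values may therefore have gained or lost reads through the partner gene. Exons of Psmb5 and Psmd1 also overlap a gene on the same strand, Mir686 and Gm21972.

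Per kilobase of transcript, the 31 subunits lay close together. The level was taken as CPM per kilobase of the main coding transcript, the only scale on which levels of different genes are compared here. Of the 31, 28 lay within 2-fold of their median of 105.8 CPM per kilobase. Psmb6, the catalytic subunit of caspase-like specificity, was highest, with a mean of 219.9 CPM per kilobase over the 8 libraries and a range of 161.5 to 271.0. Psma3, an alpha ring subunit, was lowest at 44.3 CPM per kilobase with a range of 37.0 to 51.9, which is 4.96-fold below Psmb6. Next above Psma3 came Psmc6, Psma5 and Psma2 at 51.1, 54.8 and 55.2 CPM per kilobase, with ranges that overlapped one another. At the top, Psmd8 at 198.9 and Psmb4 at 181.9 CPM per kilobase also overlapped Psmb6 in range. The transcript lengths of Psma3 and Psma2 used here, 2846 and 2911 bases, are long for alpha subunits, and a cell that uses a shorter form would give a higher level on this scale.

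**Figure D1:**
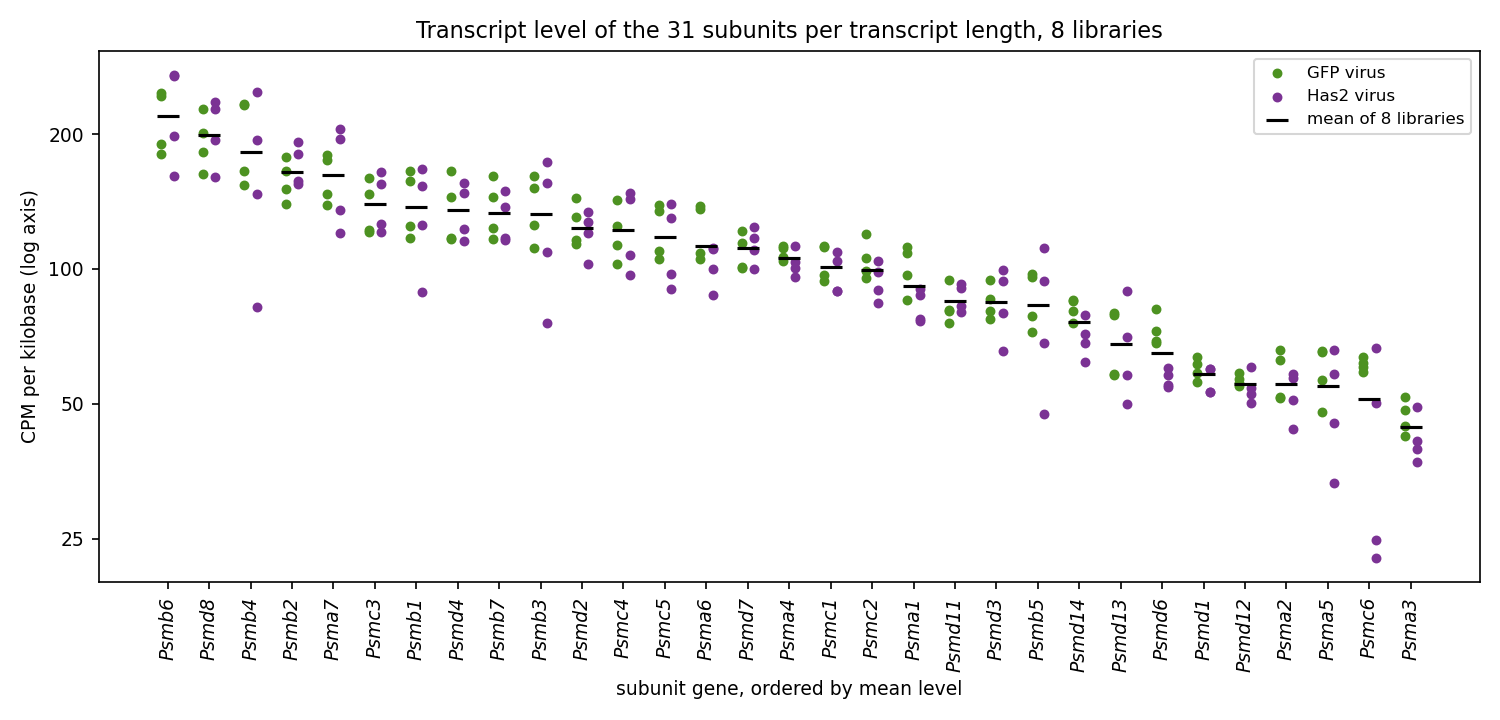
Level of each of the 31 subunits in CPM per kilobase of coding transcript (log axis), ordered by the mean of the 8 libraries (black bar), with one point per library coloured by virus. The order runs from Psmb6 at 219.9 down to Psma3 at 44.3 CPM per kilobase, and the points of the GFP and Has2 libraries lie in the same range for most subunits.

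Set side by side over all 4 pairs, Has2 virus and GFP virus gave nearly the same levels of the constitutive proteasome transcripts. The median log2 fold change of the 31 was -0.08, against -0.02 for all genes tested, with 23 values below 0 and 8 above. No subunit passed edgeR's quasi-likelihood test with the pair as a block at a Benjamini-Hochberg adjusted p under 0.05, where 0.0066% of all genes were called. At an unadjusted p under 0.05 there were 3 subunits, where 7.49% of all genes fell, and the smallest adjusted p was 0.648. DESeq2 and limma-voom with the same block also called 0 subunits. The 95% interval stayed within a 1.5-fold change either way for 29 of the 31, the exceptions being Psmb4 and Psmc6. Their summed level was 4514, 5716, 5420 and 4680 CPM in GFP replicates 1 to 4 and 4157, 4518, 5409 and 5254 CPM in Has2 replicates 1 to 4. The sums of the 2 groups therefore overlapped, with Has2 replicates 1 and 2 low and Has2 replicates 3 and 4 among the high libraries.

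That near-zero average combined pairs that differed. The median log2 change of the 31 was -0.14 in pair 1, -0.38 in pair 2, 0.04 in pair 3 and 0.16 in pair 4. All 31 were lower with Has2 virus in pair 2, and 22 of 31 in pair 1. In the male pairs most were higher, 18 of 31 in pair 3 and 23 of 31 in pair 4. There were 15 subunits that were lower in both female pairs and higher in both male pairs, a pattern shown by 18.7% of all genes tested. Another 3, Psma1, Psmd1 and Psmd6, were lower in all 4 pairs, as were 8.13% of all genes, and none was higher in all 4.

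**Figure D2:**
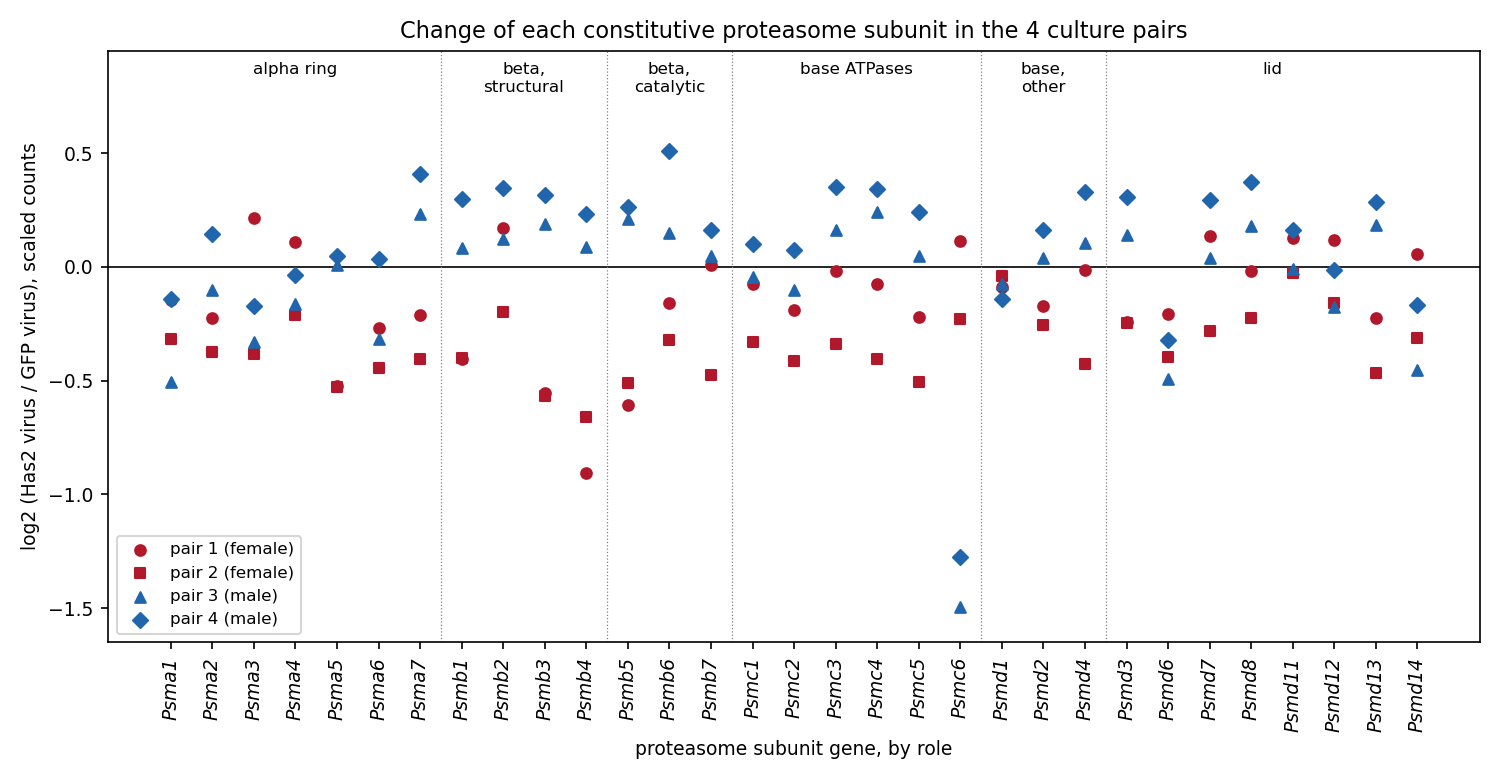
Log2 ratio of Has2 virus over GFP virus for each of the 31 subunits, grouped by role, with 1 point for each of the 4 pairs (circle and square, female; triangle and diamond, male). Female points lie mostly below 0 and male points mostly above it, except in the alpha ring and for Psmc6, whose male points lie at -1.49 and -1.28.

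In the response to Has2 virus, 22.6% of the subunits were called in the female pairs, where 7.23% of all genes were. For the difference between the sexes 45.2% were called, where 29.5% of all genes were. In the male pairs the share of subunits called, 19.4%, was below the 24.9% of all genes. No test of these shares was made. In the female pairs the median log2 fold change was -0.23, against -0.01 for all genes, and 7 of 31 were called, all lower, where 7.23% of all genes were called and 4.83% were called lower. These were Psma5, Psmb1, Psmb3, Psmb4, Psmb5, Psmc5 and Psmd13. In the male pairs the median was 0.10, against 0.04 for all genes, and 6 of 31 were called, where 24.9% of all genes were called. Psma7, Psmb3 and Psmb6 were the 3 called higher (5.68% of all genes), and Psma1, Psmc6 and Psmd6 the 3 called lower (19.2% of all genes). The male minus female difference had a median of 0.32, against 0.03 for all genes, and edgeR's quasi-likelihood test called 14 of 31. Of all genes tested 29.5% were called for this difference, 11.5% with a higher and 18% with a lower value in males. The subunits split the other way, 13 with a higher and 1 with a lower value in males. Of the 14, 7 belong to the core particle and 7 to the regulatory particle.

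These calls rest on treating libraries of the same number as pairs. Without the replicate block the same test called 0 of 31 subunits for the difference between the sexes, and 0 of all genes, while the median difference was still 0.32. At an unadjusted p under 0.05 it then gave 4 subunits, where 13.3% of all genes fell. Within the female pairs it called 0 subunits without the block (0.0066% of all genes, and 3 subunits at an unadjusted p under 0.05, where 3.6% of all genes fell), and within the male pairs 1 (1.33% of all genes), Psmc6, which was lower. Single pairs also carried weight. The number of subunits called for the difference between the sexes changed with the pair left out, as did that of all genes. With each pair left out in turn, the median of the 31 ran from -0.36 to -0.14 in the female pairs. In the male pairs it ran from 0.09 to 0.16. Leaving out a pair leaves its sex with 1 pair, which is then assumed to vary like the pairs of the other sex. Of the calls within a sex, the 7 lower in the female pairs became 15 without pair 1 (5.18% of all genes) and 4 without pair 3 (3.01%). The 3 higher in the male pairs became 12, 11, 1 and 0 without pairs 1, 2, 3 and 4, where 20.6%, 15.4%, 0.381% and 0.526% of all genes were called higher. Several measured properties of the libraries moved with the same split. Has2 itself reached 9533 and 8406 CPM in the female Has2 libraries and 3209 and 4860 CPM in the male ones. Mitochondrial transcripts took 1.02% and 0.662% of counts in the female GFP libraries and 1.88% and 0.909% in their Has2 partners. In the male pairs the order was the reverse, 0.702% and 0.940% with GFP virus and 0.417% and 0.603% with Has2 virus. The 12 macrophage markers, none of them at 0 and Lyz2 the most abundant, summed to 993 to 2430 CPM with GFP virus and 931 to 2582 CPM with Has2 virus. Their sum was lower with Has2 virus in both female pairs and higher in both male pairs. Single markers did not all follow the sum. Cd68, Itgam and Mrc1 were higher with Has2 virus in both female pairs, and Ptprc was lower in both male pairs. The part of Has2 level, mitochondrial share and macrophage markers in the subunit values was not tested.

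**Figure D3:**
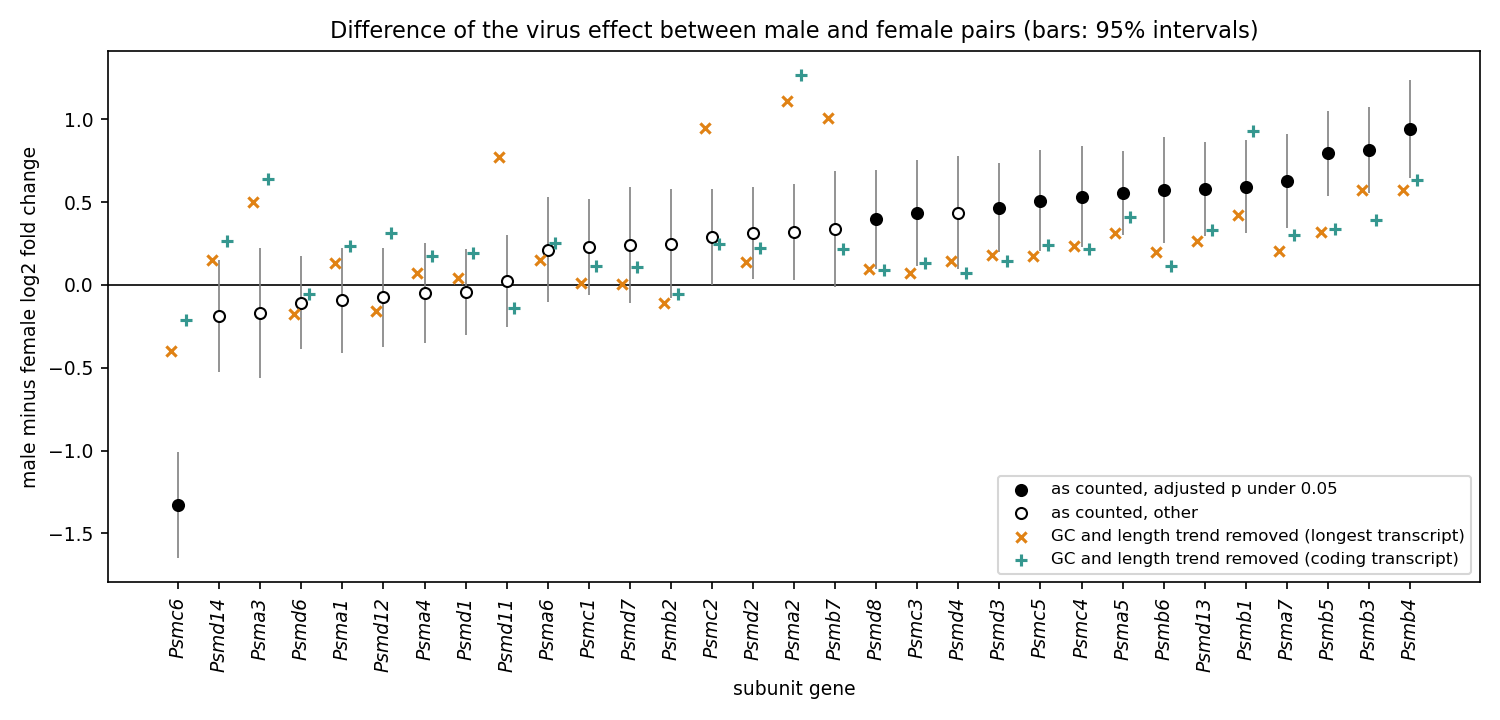
Male minus female log2 fold change of each subunit with its 95% interval (circles, filled where the adjusted p was under 0.05), ordered by value, and the same difference after a trend with GC content and length was removed (crosses, longest transcript; plus signs, coding transcript). Psmb4 at 0.94 and Psmc6 at -1.33 are the ends of the order, and for both the values after trend removal lie nearer 0.

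The alpha ring, which forms the gate of the core particle, had a median log2 fold change of -0.17 over all pairs, -0.30 in female pairs and -0.10 in male pairs. Of its 7 subunits 2, Psma5 and Psma7, were called for a higher value in males. Psma5 had 59.4, 81.0, 81.2 and 69.8 CPM in GFP replicates 1 to 4 and 41.3, 56.1, 81.7 and 72.2 CPM in Has2 replicates 1 to 4. Both female Has2 libraries were below every GFP library, and the male ones were level with their GFP partners, which gave female and male log2 fold changes of -0.53 and 0.03. Psma7 had 127, 164, 159.6 and 135 CPM with GFP virus and 110.0, 124, 188 and 178 CPM with Has2 virus, so that its female Has2 libraries were the lowest of the 8 and its male ones the highest. Its male log2 fold change was 0.32 (edgeR adjusted p = 0.0267). Psma2 and Psma4 were not called, at 149.9 to 192 and 122 to 131 CPM with GFP virus and 128 to 169 and 112 to 131 CPM with Has2 virus. Psma1 was measured at 102, 135, 130.1 and 116 CPM in GFP replicates 1 to 4 and at 92.7, 108, 91.7 and 105 CPM in Has2 replicates 1 to 4. It was lower with Has2 virus in each pair, although the groups overlapped, with Has2 replicates 2 and 4 above GFP replicate 1. The log2 fold change of Psma1 was -0.28 (SE 0.10, 4 pairs), with an adjusted p of 0.648 in edgeR's quasi-likelihood test. Psma6 was at 109.7, 142, 144 and 113 CPM with GFP virus and at 91.1, 104, 116 and 115 CPM with Has2 virus. It was lower in pairs 1 to 3 and nearly level in pair 4, with a log2 fold change of -0.25 (SE 0.11) and an adjusted p of 0.648 from edgeR. Psma3, the subunit lowest per kilobase, stood at 121, 138, 148 and 127 CPM with GFP virus and 140.2, 105, 117 and 113 CPM with Has2 virus. Only its first pair was higher with Has2 virus, and its log2 fold change was -0.17 (SE 0.12).

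Among the 4 beta ring subunits without a cutting site, Psmb1, Psmb2, Psmb3 and Psmb4, the split by sex was wide. Their median was -0.48 in female pairs and 0.21 in male pairs, and 3 of 4 were called for the difference, all but Psmb2. Psmb4, which joins the ring last in its assembly, was at 182, 274, 276 and 195 CPM in GFP replicates 1 to 4 and at 97.2, 174, 293 and 229.7 CPM in Has2 replicates 1 to 4. Both female Has2 libraries lay below every GFP library, and Has2 replicate 3 lay above every one, so the groups overlapped. Psmb4 fell by 0.78 on the log2 scale in the female pairs (SE 0.10, edgeR adjusted p = 0.00206) and stood at 0.16 in the male pairs (SE 0.09, edgeR adjusted p = 0.23). The male minus female difference was 0.94 (SE 0.13), with an edgeR adjusted p of 0.000488. Psmb3 was at 85.3, 124, 116 and 95.9 CPM with GFP virus and 58.1, 83.4, 133 and 119 CPM with Has2 virus. It moved in opposite directions in the sexes, with a female log2 fold change of -0.56 and a male one of 0.25, and edgeR's adjusted p was 0.00669 and 0.0483. The difference for Psmb3 was 0.81 (SE 0.12, edgeR adjusted p = 0.000546). Psmb1, named here after its values were seen, had 206, 291, 277 and 219.7 CPM with GFP virus and 156, 220.4, 293 and 269.8 CPM with Has2 virus. Its difference was 0.59 (SE 0.13, edgeR adjusted p = 0.00571).

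The 3 catalytic subunits gave no change over all pairs that passed the test. Psmb5, of chymotrypsin-like specificity, had 65.1, 87.4, 86.3 and 70.5 CPM in GFP replicates 1 to 4 and 42.7, 61.4, 99.96 and 84.6 CPM in Has2 replicates 1 to 4. The female Has2 libraries lay below all 4 GFP libraries, and Has2 replicate 3 lay above them. Psmb5 fell by 0.56 on the log2 scale in the female pairs (SE 0.08, edgeR adjusted p = 0.00668), and its male value was 0.24 (edgeR adjusted p = 0.0571). Its difference between the sexes was 0.80 (SE 0.12, edgeR adjusted p = 0.000592). Psmb6 had 144, 197, 194 and 152 CPM with GFP virus and 129, 158, 215 and 216 CPM with Has2 virus. The female Has2 libraries were within or below the GFP range, and both male ones were above it. It rose by 0.33 in the male pairs (SE 0.10, edgeR adjusted p = 0.0386), with a difference between the sexes of 0.57 (SE 0.14, edgeR adjusted p = 0.0134). Without pair 4 the difference for Psmb6 was 0.42, with an edgeR adjusted p of 0.154. Psmb7, of trypsin-like specificity, had 135, 187, 168 and 143 CPM with GFP virus and 136, 135, 173 and 159.7 CPM with Has2 virus. Its only large step was in pair 2, and its difference of 0.34 (SE 0.16) had an edgeR adjusted p of 0.137. Without pair 1 the difference for Psmb7 was 0.60, with an edgeR adjusted p of 0.00211.

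Interferon-induced subunits can replace each of these in newly assembled core particles, and they were the less abundant form here. Psmb8 replaces Psmb5, Psmb9 replaces Psmb6 and Psmb10 replaces Psmb7. In GFP replicates 1 to 4, Psmb8 reached 27.6%, 21.6%, 26.7% and 30.8% of the level of Psmb5 per kilobase, and in Has2 replicates 1 to 4 it reached 20.1%, 17.1%, 22.6% and 25%. The ratio was lower with Has2 virus in all 4 pairs. Psmb9 was between 1.48% and 2.81% of Psmb6 with GFP virus and between 1.16% and 1.81% with Has2 virus, again lower in all 4 pairs. Psmb10 was between 19.2% and 25.5% of Psmb7 with GFP virus, and with Has2 virus it was 14.7% and 13.6% in the female and 27.0% and 23.9% in the male libraries. Has2 replicate 3 was thus the one library in which this ratio was above its GFP partner. These ratios are given as descriptions, with no test.

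**Figure D4:**
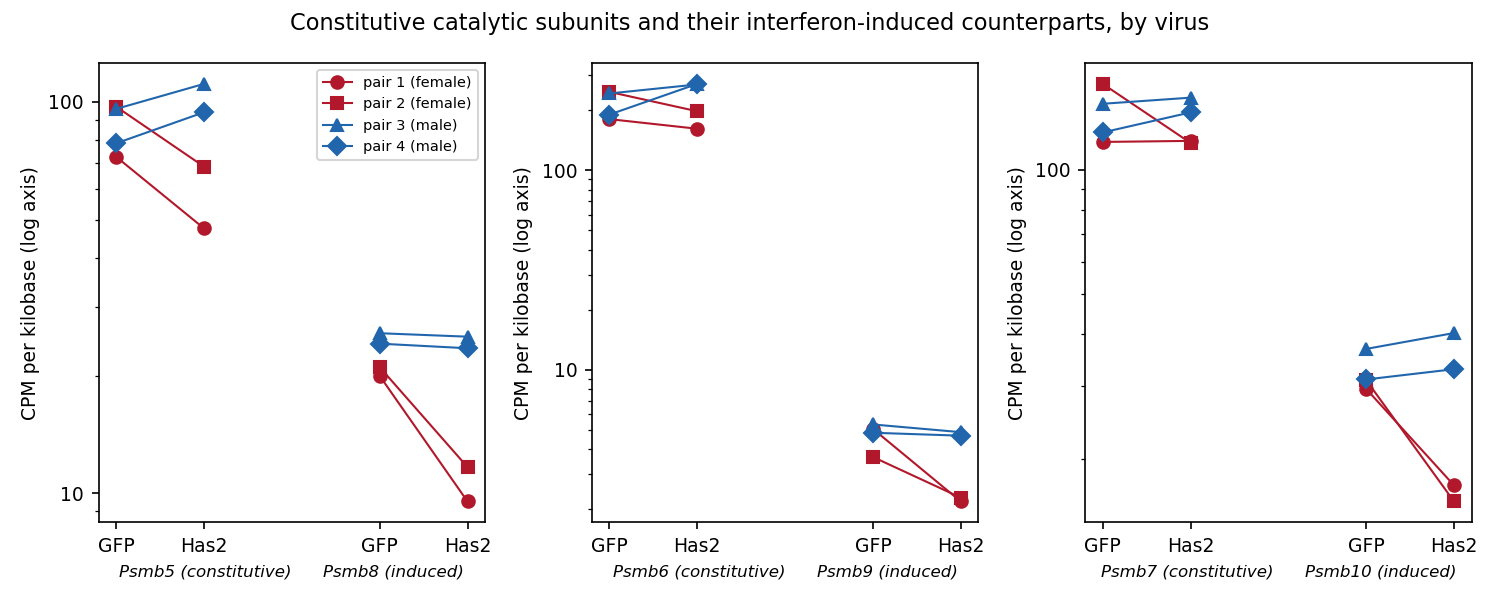
Levels of the 3 constitutive catalytic subunits and their interferon-induced counterparts in CPM per kilobase (log axis), with each line joining the GFP and Has2 libraries of 1 pair. The induced subunits lie below their partners in every library, and the steepest falls are those of Psmb8, Psmb9 and Psmb10 in the female pairs.

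Of the 5 genes on the interferon-induced list, which adds the activator subunits Psme1 and Psme2, none was called over all pairs, and their median log2 fold change was -0.38. All 5 were called for the difference between the sexes, each with the higher value in males, where 11.5% of all genes were called higher. Their median difference was 0.86. With the longest and coding transcript trends of GC content and length removed it was 0.55 and 0.50, and 2 of the 5, Psmb8 and Psmb10, were called in either case. Psmb8 had 32.5, 34.2, 41.8 and 39.3 CPM with GFP virus and 15.5, 19, 40.9 and 38.2 CPM with Has2 virus. It fell by 0.96 in the female pairs (SE 0.09, edgeR adjusted p = 0.000808) and stood at -0.03 in the male pairs (SE 0.09). Psmb10 had 38.7, 40.6, 48.4 and 40.8 CPM with GFP virus and 22.6, 20.7, 52.8 and 43.2 CPM with Has2 virus, and fell by 0.87 in the female pairs (edgeR adjusted p = 0.00109). Psme2 had 74.2, 86.8, 102.5 and 78.3 CPM with GFP virus and 44.8, 56.5, 99.8 and 87.3 CPM with Has2 virus. For these 3 genes the female Has2 libraries lay below all GFP libraries and the male ones within or near the GFP range. Psmb9 was the least abundant, at 4.95 to 7.21 CPM with GFP virus and 2.96 to 6.60 CPM with Has2 virus, and it fell by 0.95 in the female pairs (edgeR adjusted p = 0.012). Psme1 was at 65.1 to 93.4 CPM with GFP virus and 63.2 to 95.2 CPM with Has2 virus, with a female log2 fold change of -0.25 (edgeR adjusted p = 0.161). The female median of the 5 induced genes was -0.87 and that of the 31 constitutive subunits -0.23. The difference between those medians was not tested.

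The 6 ATPases of the base, Psmc1 to Psmc6, form the ring that unfolds substrates. They share the nucleotide-binding loop known as Walker A, and the stretch of coding sequence around it shows how alike they are where they bind ATP. Each window holds 72 bases, with the 24 bases that code for the loop in capitals, read from the GENCODE M21 coding transcripts.
Psmc1: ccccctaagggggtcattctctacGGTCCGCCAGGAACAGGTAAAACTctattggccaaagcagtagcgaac
Psmc2: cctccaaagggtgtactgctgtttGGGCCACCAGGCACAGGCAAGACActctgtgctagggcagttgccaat
Psmc3: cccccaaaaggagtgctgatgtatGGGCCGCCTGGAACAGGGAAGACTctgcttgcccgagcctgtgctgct
Psmc4: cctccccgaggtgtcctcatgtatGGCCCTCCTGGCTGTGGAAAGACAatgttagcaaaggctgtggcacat
Psmc5: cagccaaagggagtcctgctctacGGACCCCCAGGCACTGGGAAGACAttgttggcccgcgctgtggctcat
Psmc6: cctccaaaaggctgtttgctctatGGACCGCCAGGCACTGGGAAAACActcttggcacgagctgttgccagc
Against Psmc5, the other windows match at 48 to 52 of the 72 positions. Over the whole coding sequence the GC content of Psmc6 was 41.8%, and that of the other ATPases ran from 48.9% for Psmc1 to 54.4% for Psmc3. In this window Psmc6 has 56.9% G or C, the same as Psmc2.

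Psmc6 was the ATPase that stood apart. It had 138, 131, 142 and 135 CPM in GFP replicates 1 to 4 and 149, 112, 50.5 and 55.6 CPM in Has2 replicates 1 to 4. Has2 replicate 1 was the highest of the 8 libraries, while both male Has2 libraries were under every other one. The log2 fold change was -0.72 (SE 0.28, edgeR adjusted p = 0.648) over all pairs, -0.06 (SE 0.10, edgeR adjusted p = 0.772) in females and -1.39 (SE 0.10, edgeR adjusted p = 7.91e-06) in the male pairs. Its difference between the sexes was -1.33 (SE 0.15, edgeR adjusted p = 0.000102). Without the replicate block, edgeR's adjusted p was 0.0309 in the male pairs and 0.15 for the difference. Psmc3, Psmc4 and Psmc5 were called in the opposite direction, with differences of 0.44, 0.53 and 0.51, and Psmc1 and Psmc2 were not called. Psmc3 ran from 220.4 to 290.3 CPM with GFP virus and from 220.0 to 299 CPM with Has2 virus, and Psmc4 from 147 to 205 and from 139.8 to 212 CPM. Psmc5 had 138, 182, 177 and 144 CPM with GFP virus and 118, 128, 183 and 171 CPM with Has2 virus, so that both male Has2 libraries, in which Psmc6 was low, were above their GFP partners for Psmc5.

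Psmc6 also has the lowest GC content of the 31, 37.0% over its coding transcript of 2234 bases. The 90 bases of coding sequence with the least G and C in Psmc5 and in Psmc6 are printed because the values in the male pairs followed base composition, with every G and C in capitals.
Psmc5: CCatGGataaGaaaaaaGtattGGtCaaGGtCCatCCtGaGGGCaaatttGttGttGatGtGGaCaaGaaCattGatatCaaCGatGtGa
Psmc6: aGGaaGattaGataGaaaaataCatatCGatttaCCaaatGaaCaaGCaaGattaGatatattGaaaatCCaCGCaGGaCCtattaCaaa
In these windows 38.9% of the bases of Psmc5 and 30% of those of Psmc6 are G or C.

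Across the 31 subunits, the change in the male pairs ordered closely with transcript GC content. Spearman's rho between the log2 change and the GC content of the coding transcript was -0.31 and -0.27 in pairs 1 and 2 and 0.87 and 0.81 in pairs 3 and 4, over 31 genes measured in the same libraries. Without Psmc6, over 30 genes, the values in pairs 3 and 4 were 0.85 and 0.79. The 15123 tested genes with a known GC content showed the same signs, -0.22 and -0.18 in female pairs and 0.66 and 0.64 in male pairs. Where a gene had no coding transcript, its longest transcript was used. Of the 8 subunits under 45% GC, the male median was -0.18, where 3139 genes under 45% had a median of -0.70. From 45 to 50% the 8 subunits had a male median of 0.01 and all genes one of -0.11. At 50% or more the 15 subunits had 0.24 and all genes 0.18, and 11 of the 13 subunits with a called higher value in males lay there. The members run from 37.0% to 58.3% GC with a median of 49.7%. These are correlations across genes, which are not independent replicates.

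**Figure D5:**
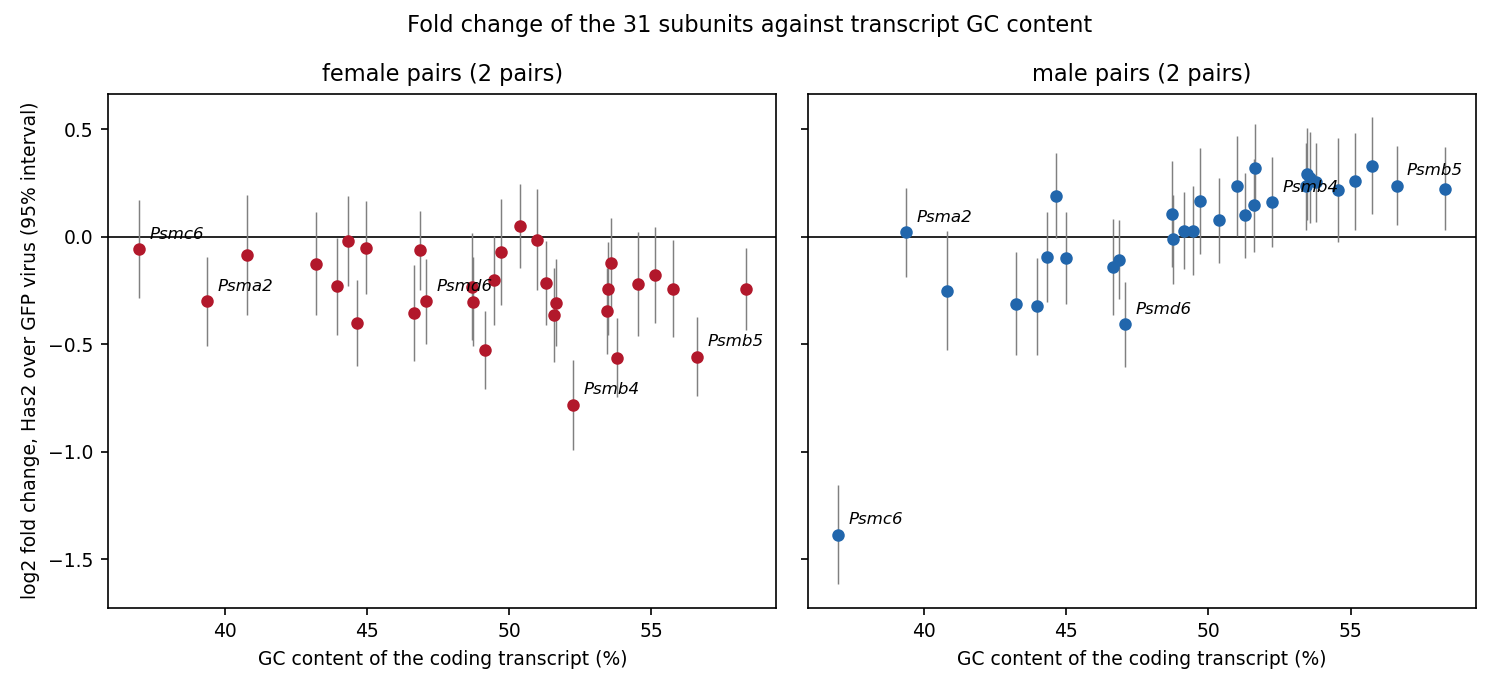
Log2 fold change of each of the 31 subunits with its 95% interval against the GC content of its coding transcript in percent, in the female pairs (left) and the male pairs (right). In the male pairs values rise with GC content, from Psmc6 at -1.39 and 37.0% GC to subunits above 0 at 50% or more, and in the female pairs most values lie below 0 at any GC content.

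When a smooth trend of the fold change with GC content and length was removed from every library, fewer subunits were called and the set changed. With the longest transcript of each gene as the source of GC content and length, 8 of 31 were called for the difference between the sexes, where 10.6% of all genes were, and 4 of these were among the 14 called before. With the coding transcript, a choice made after seeing the data, 6 were called, where 9.89% of all genes were, and again 4 were among the 14. Those 6 were Psma2, Psma3, Psma5, Psmb1, Psmb3 and Psmb4, all of the core particle. Psmb1, Psmb3 and Psmb4 were called as counted and with either trend removed. Psma2 was called with either trend removed but not as counted. The highest difference of any subunit, in the alpha ring, was 1.11 with the longest and 1.27 with the coding transcript trend removed. As counted the highest was the 0.94 of Psmb4. Psmb4 kept a difference of 0.57 (edgeR adjusted p = 0.0214) with the first and 0.63 (edgeR adjusted p = 0.0131) with the second, and Psmb3 one of 0.57 (edgeR adjusted p = 0.00733) and 0.39 (edgeR adjusted p = 0.0343). Psmc6 shrank to -0.40 (edgeR adjusted p = 0.0451) and -0.21 (edgeR adjusted p = 0.263). Psmb5 and Psmb6 were no longer called with either. The sign of the difference changed for 6 subunits with the first trend removed and for 8 with the second, among them Psma1, Psma3 and Psma4 in both cases, so that all 7 alpha ring values were then above 0. Psmb7, Psmc2 and Psmd11 were called with the longest transcript only, which for these genes has 2849, 3466 and 2975 bases and is a retained-intron form. The longest transcript is also a retained-intron form for Psma7, Psmb3, Psmb6, Psmc4, Psmd3 and Psmd4. For Psmb3 it has 1509 bases, against 766 in the coding transcript. The values of these genes with the longest transcript trend removed carry the same limit. In the male pairs Psmc6 remained called lower with either trend removed, at -0.46 (edgeR adjusted p = 0.00494) and -0.32 (edgeR adjusted p = 0.0258).

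The base subunits that are not ATPases gave no calls. Psmd1 and Psmd2 are its large scaffolds and Psmd4 is a ubiquitin receptor. None of the 3 was called in either sex or for the difference. Their median log2 fold change was -0.06 over all pairs, -0.22 in female pairs and 0.10 in male pairs, and their median difference of 0.31 was close to the 0.32 of all 31. Psmd4 had a difference of 0.44 (SE 0.15, edgeR adjusted p = 0.0559). Psmd2 was the subunit with the most reads, at 337 to 426 CPM with GFP virus and 304 to 396 CPM with Has2 virus. Psmd4 ran from 149 to 211 and from 147 to 198 CPM. Psmd1 ran from 174 to 198 CPM with GFP virus and from 165 to 186 CPM with Has2 virus, the narrowest SE of the set at 0.08.

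The lid, which removes ubiquitin chains before a substrate enters, held the one subunit whose groups did not overlap. Psmd6, a structural subunit of the lid, had 95.9, 100.7, 113 and 94.7 CPM in GFP replicates 1 to 4 and 83.2, 76.4, 80.4 and 75.7 CPM in Has2 replicates 1 to 4. Every Has2 library was below every GFP library, as was the case in one direction or the other for 2.38% of all genes. The log2 fold change was -0.35 (SE 0.09, 95% interval -0.57 to -0.14), lower in 4 of 4 pairs, with an adjusted p of 0.648 in edgeR's quasi-likelihood test. Psmd6 was called in the male pairs at -0.41 (edgeR adjusted p = 0.00689) and missed the threshold in the female pairs at -0.30 (edgeR adjusted p = 0.0695). The sexes differed by -0.11 (SE 0.13, edgeR adjusted p = 0.581). With the GC and length trends removed its change over all pairs was -0.23 and -0.21. Of the other lid subunits, Psmd3, Psmd8 and Psmd13 were called for a higher value in males, at 0.47, 0.40 and 0.58. Psmd13 had 116, 159, 157 and 115 CPM with GFP virus and 99.4, 115, 178 and 140.3 CPM with Has2 virus, lower in both female pairs and higher in both male pairs. Psmd3 ran from 166 to 203 CPM with GFP virus and from 141 to 214 CPM with Has2 virus, and Psmd8 from 246 to 344 and from 243 to 357 CPM. Psmd7, the inactive partner of Psmd14, Psmd11, which clamps the lid to the core particle, and Psmd12 were not called, with log2 fold changes over all pairs of 0.05, 0.06 and -0.06. Psmd14, the deubiquitinase of the lid, was not called in any of these contrasts.

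Genes that build, regulate or feed the proteasome gave no call over all pairs either. For the difference between the sexes, the shares of all genes called are 11.5% higher and 18% lower in males. Of 8 assembly chaperones 2 were called for a higher value in males, and their female and male medians were -0.25 and 0.11. Psmg3, an assembly chaperone, had 9.85, 11.8, 13.6 and 11.3 CPM with GFP virus and 7.30, 7.39, 14.1 and 14.9 CPM with Has2 virus, a difference of 0.77 (SE 0.18, edgeR adjusted p = 0.00816), which was 0.58 and 0.31 and no longer called with the trends removed. Of the 3 other activators and inhibitors 1 was higher and 1 lower in males. The higher was Psmf1, the proteasome inhibitor, named after its values were seen, at 0.40 (SE 0.12, edgeR adjusted p = 0.0275). The lower, Psme4, an activator that caps the core particle, had 89.9, 75.1, 83.9 and 94.4 CPM with GFP virus and 85.7, 88.0, 36.5 and 44.2 CPM with Has2 virus. As with Psmc6, only the male Has2 libraries were low, and Psme4 fell by 1.15 in the male pairs (SE 0.10, edgeR adjusted p = 1.15e-05). Its difference between the sexes was -1.23, and -0.53 and -0.46, still called, with the trends removed. Of 12 further associated genes 3 were called, all with a lower value in males, among them Ecpas, a proteasome scaffold, at -0.75 (SE 0.12). With the trends removed Ecpas was at -0.04 and 0.013 and no longer called. Of 6 ubiquitin and E1 genes 3 were higher and 1 was lower in males. The lower one was Uba6, an E1 enzyme, with a difference of -1.60 (SE 0.19, edgeR adjusted p = 0.000183), which was -0.33 and -0.22 and no longer called with the longest and coding transcript trends removed.

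Nfe2l1, the transcription factor that raises proteasome genes, showed no change that passed the test in any contrast. It had 533, 550.3, 428 and 429 CPM in GFP replicates 1 to 4 and 516, 583, 488 and 439 CPM in Has2 replicates 1 to 4. The female libraries were the higher ones under either virus. Its log2 fold change was 0.06 (SE 0.09, edgeR adjusted p = 0.841), and 0.02 and 0.11 in the female and male pairs. Ngly1, the enzyme that trims sugars from NFE2L1 protein, had a difference between the sexes of -0.76 (SE 0.13, edgeR adjusted p = 0.00146), which was -0.13 and -0.11 and no longer called with the trends removed. Of the 4 regulators listed, which include Nfe2l2 and Ddi2, 2 were called lower in males, where 18% of all genes were. With the longest transcript trend removed 0 of the 4 were called. With the coding transcript trend removed 1 was called lower, neither Nfe2l1 nor Ngly1.

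NFE2L1 is known to bind antioxidant response elements, so the promoters with letters of that element are shown beside the responses of their genes. The letters TGACNNNGC were searched on both strands in the 250 bases before each start, in the RefSeq promoters of build GRCm38.p6, where 25 of the 31 subunits were matched. These 25 genes have 27 promoters, of which 4 (14.8%) held the letters, 1 in each of 4 genes, against 10.2% of 32851 promoters. The windows run from chr14:54617998-54618078 (minus strand) for Psmb5, chr11:70525312-70525356 (plus strand) for Psmb6, chr14:45329574-45329641 (plus strand) for Psmc6 and chr11:107479278-107479325 (plus strand) for Psmd12. Capitals mark the match, which reads on the opposite strand for Psmc6 and Psmd12.
Psmb5: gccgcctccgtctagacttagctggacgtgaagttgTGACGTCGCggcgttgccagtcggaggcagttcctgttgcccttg
Psmb6: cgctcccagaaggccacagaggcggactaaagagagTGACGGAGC
Psmc6: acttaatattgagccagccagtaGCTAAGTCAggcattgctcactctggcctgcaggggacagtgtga
Psmd12: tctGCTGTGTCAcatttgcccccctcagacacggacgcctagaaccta
The match lies 47 to 39 bases before the start of Psmb5 and 9 to 1 bases before that of Psmb6, and 227 to 219 and 247 to 239 bases before those of Psmc6 and Psmd12. In the female pairs the log2 fold changes of Psmb5, Psmb6, Psmc6 and Psmd12 were -0.56, -0.24, -0.06 and -0.02. All were below 0, as were 30 of the 31 subunits. In the male pairs the same 4 genes had 0.24, 0.33, -1.39 and -0.09. The letters CCAAT, a box bound by NF-Y, were in 10 of the 27 subunit promoters (37.0%) and in 33.8% of all. CCGGAAGT, a form of the site of ETS factors, was in 5 of the 27 (18.5%), in the genes Psmc1, Psmc2, Psmd6 and Psmd12, and in 2.88% of all. None of the 3 motifs contains another, and a match is a description of the sequence.

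The same contrasts are given for other housekeeping complexes. The 8 subunits of the CCT chaperonin, which folds actin and tubulin, had medians of -0.26 in female pairs and -0.01 in male pairs, where 4 were below and 4 above 0, and 3 were called for a higher value in males. The 9 genes of the COP9 signalosome, a relative of the lid, had -0.18 and 0.10, with 3 called higher and 1 called lower in males. The 74 cytosolic ribosomal protein genes had -0.40 and 0.21, with 51 called, and the 63 nuclear genes of oxidative phosphorylation -0.33 and 0.21, with 45 called. The share called was 45.2% for the 31 proteasome subunits, 68.9% for the ribosomal and 71.4% for the oxidative phosphorylation genes, and 29.5% for all genes. No test of a difference between these lists was made.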

How the data were processed

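The authors deposited 1 table of raw gene counts for 8 libraries, and its counts are whole reads per Ensembl gene, not normalized. Per the submitters' processing notes, FastQC 0.10.1 and HTSeq 0.10.0 were used with build mm39 (GRCm39), and per the labels' protocols the libraries came from Trizol RNA and a stranded mRNA kit. How reads were aligned, which annotation was used and whether counting used strand is not given in the sources used here. The IDs were paired with symbols from GENCODE M21, which named 52081 of 55414 genes. The 3333 without a symbol, which held between 0.405% and 0.871% of counts, stayed in the library sizes and tests.

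Counts were analysed in R 4.3.3 with edgeR 4.0.16 (TMM scaling, filterByExpr by group, glmQLFit and glmQLFTest) over all genes, with the replicate number as a block, and p-values were adjusted by Benjamini-Hochberg over 15150 genes. A gene is called at an adjusted p under 0.05. The sex comparison adds a sex-by-virus term to the same model. Alternatives used limma 3.58.1, DESeq2 1.42.0, other scalings and filters, GC and length trends (splines with 5 degrees of freedom), no block, and each pair left out. The fits were also run on counts simulated from the model with the block, a setting that cannot test the pairing or the GC trends.

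The block follows the preparation identifiers that libraries of a number share. As a check, same-numbered libraries deviated together from their groups, with correlations of 0.58, 0.62, 0.53 and 0.44 over 15150 genes, while libraries of different numbers gave -0.47 to 0.31.

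The members and the lists beside them were chosen with earlier results of these data known. Genes given with full values by rule are the catalytic subunits, the 4 smallest p in each comparison, the highest and the lowest level per kilobase, the interferon-induced list, Nfe2l1, and in each other pathway list the gene with the smallest p. Psma5, Psma7, Psmb1, Psmc5 and Psmd13 are also given with the values of all libraries, outside this rule. Each of these was called for the difference between the sexes. GC content and lengths come from GENCODE M21 transcripts, and promoters from RefSeq, whose build, GRCm38.p6, is not that of the counts. For a gene without a coding transcript, the longest transcript stood in for it. The chaperone Paaf1 was not analysed here.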

Additional observations from a re-analysis of the deposited data

Results flagged for a closer look

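The results below are those in which male and female pairs responded differently to Has2 virus by edgeR's test of the difference itself, with the pair as a block and an adjusted p under 0.05. That test called 29.5% of all genes, and without the block it called 0. Each value is the male minus female log2 fold change, over 2 pairs of each sex. Among the constitutive subunits the largest were Psmc6 at -1.33, Psmb4 at 0.94, Psmb3 at 0.81 and Psmb5 at 0.80. Psma5 had 0.55, Psma7 0.63, Psmb1 0.59 and Psmb6 0.57. Of the ATPases, Psmc3 had 0.44, Psmc4 0.53 and Psmc5 0.51. Of the lid, Psmd3 had 0.47, Psmd8 0.40 and Psmd13 0.58. Of these subunits only Psmb1, Psmb3 and Psmb4 were also called with both the longest and the coding transcript trend removed.

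Among the interferon-induced genes, Psmb8 had 0.92, Psmb9 0.86, Psmb10 0.98, Psme1 0.45 and Psme2 0.73. Of the other genes named, Psmg3 had 0.77, Psme4 -1.23, Ecpas -0.75, Ngly1 -0.76 and Uba6 -1.60. With the longest and coding transcript trends removed, Psme4 had -0.53 and -0.46 and was still called, while Psmg3 (0.58 and 0.31), Ecpas (-0.04 and 0.013), Ngly1 (-0.13 and -0.11) and Uba6 (-0.33 and -0.22) were not. Has2 level, mitochondrial share and the sum of the macrophage markers moved with the same split, and their part in these values was not tested.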

How the results depend on the processing

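No subunit was called for the virus comparison under any alternative run, and its median over the 31 ranged from -0.14 to 0.03. The number of all genes called there was 1 as reported, 118 with no expression filter and 61 with DESeq2. It was 2 and 6 with the longest and coding transcript trends removed (the latter chosen after seeing the data). With library totals and with the stricter filter it was 0. Scaling without Has2 counts also gave 0, but that run left Has2, the 1 gene called as reported, out of the test. Leaving out one replicate gave 0 to 1 genes.

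Without the replicate block, the sex difference had 0 genes and 0 subunits called, against 4470 and 14 with it, and 0 subunits were called lower in female or higher in male pairs. Without the block and with 1 library left out, it gave 0 to 4 genes and 0 subunits. Only the male median moved by more than the spread between pairs, to 0.20 without GFP replicate 3. With the longest and coding transcript trends removed, 1610 and 1499 genes and 8 and 6 subunits were called for the sex difference. Leaving out pairs in turn gave 2353 to 4972 genes and 6 to 20 subunits for the sex difference, 4 to 15 subunits lower in female pairs and 0 to 12 higher in male pairs. The number lower in female pairs was 4 with the longest transcript trend removed. The number higher in male pairs, 3 as reported, was 5 with RLE scaling, no filter, the stricter filter, DESeq2 and the longest transcript trend removed. It was 1 with library totals and 8 without Has2 counts in the scaling. The shares of all genes called within a sex in these runs are not given here. A change in the subunits therefore cannot be told apart from a change in calls over all genes. With the coding transcript trend removed, Psma3 (now called) and Ecpas (called before) changed sign to 0.64 and 0.013, as did 7 other subunits and Psma8 (to 0.015) that were called neither before nor after. The cause was not tested.

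Each sex has only 2 pairs, so few degrees of freedom stand behind the sex difference, and counts of 2300 or more make counting error small beside the spread between libraries.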

Other observations

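The testis form of the alpha ring, Psma8, was near the limit of measurement in these fibroblasts. It had 0.993, 1.25, 0.992 and 0.890 CPM in GFP replicates 1 to 4 and 1.02, 1.44, 0.817 and 0.631 CPM in Has2 replicates 1 to 4, with an edgeR log2 fold change of -0.12 (SE 0.20, adjusted p = 0.882). Per kilobase, Psma8 ranged from 0.373 to 0.849 CPM and Psma7, its constitutive counterpart, from 120.3 to 205 CPM. Psmb11, the thymus form of the chymotrypsin-like subunit, did not pass the filter on low counts.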
